A study of Mus musculus with 8 samples.

Results

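Lipid-associated macrophages take up and process lipid in damaged tissue and are recognised by a shared set of genes. The genes described here are 10 of that set, Trem2, Gpnmb, Tyrobp, Apoe, Cd9, Cd63, Cd68, Fabp5, Lgals3 and Lpl. They were found by their deposited gene symbol on the array, 9 of the 10 had a probe, and each of the 9 had 1 probe. These 9 genes stood among 25734 named genes in all. Cd9 was not analysed here. The label was given to the genes and not to sorted cells, since whole lung was measured.

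The tested lungs came from mice with a doxycycline-inducible transgene for active human TGF-β1 (TGFb1-Tg), and the wild-type (WT) lungs served as their control. Each group had 4 lungs, all mice were on the B6J background, and all were 10 weeks old. The labels give 1 mg/ml of doxycycline in the water and harvests from 2 to 14 days, while the file headers give 14 days for every lung. On doxycycline the sources differ, as the labels describe it for both genotypes and the headers place the TGFb1-Tg lungs on doxycycline and the WT lungs on water. The promoter that drives the transgene, and with it the cells that make the human protein, is not given in the sources used here.

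Each lung was labelled in Cy5 and hybridised against a pooled lung RNA in Cy3 on its own array, so 8 arrays were compared. The labels name a single pool made of wild-type lungs. In the headers the TGFb1-Tg lungs are paired with pooled uninduced TGFb1-Tg lungs, and the WT lungs with pooled WT lungs, both pools being on water. In the pool channel, Xist, the RNA that coats the inactive X chromosome, read 0.01 to 0.02 on the TGFb1-Tg arrays and 1.04 to 1.13 on the WT arrays, which a single shared pool would not give. Per the headers each pool held 4 lungs, whose own spread does not enter the errors given. Whether the WT pool was made of the same 4 WT lungs is not given in the sources used here. If it was, the WT ratios average near 0 by construction. Genotype, array set and pool therefore cannot be told apart, and per the headers neither can doxycycline. Values are given both over the pool and for the sample channel alone, and neither measure removes a difference in doxycycline. WT replicate 1 also stood apart, with a sample Xist intensity of 4.6 where the other lungs read at most 0.04. Ddx3y, a gene of the Y chromosome, read 0.04 and 0.01 on its probes in that lung. The other lungs read 6.83 to 10.35 and 0.42 to 0.48. The pool on the WT arrays lay between for both genes, at 1.04 to 1.13 for Xist and 5.32 to 6.05 and 0.34 to 0.39 for Ddx3y. A pool of these 4 WT lungs would also lie between, and whether the pool held them was not tested. Sex was not tested as a factor. The probe for mouse Tgfb1, the endogenous gene, averaged a log2 sample-over-pool ratio of 1.07 ± 0.12 on the TGFb1-Tg arrays and 0.03 ± 0.12 on the WT arrays (SD, n = 4 each; limma adjusted p = 8.95e-05). Whether this probe also reads the human transgene was not tested. Nkx2-1, a transcription factor of lung epithelium, had sample intensities of 11.99 to 14.1 in TGFb1-Tg lungs and 7.08 to 8.51 in WT lungs, with a log2 ratio higher by 0.50 (limma adjusted p = 0.00103), while Sftpc and Scgb1a1 had too few values to be tested and the other listed epithelial genes were not analysed here. Between 39039 and 39281 probes were measured on each array.

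TREM2 is a receptor on macrophages and microglia that binds lipids and lipoproteins. It has no signalling tail of its own and passes its signal through TYROBP, also known as DAP12, an adaptor shared by several myeloid receptors. APOE is a lipoprotein that TREM2 can bind, LPL hydrolyses triglyceride in lipoproteins, and FABP5 carries fatty acids inside the cell. CD68, CD63 and GPNMB are membrane proteins of late endosomes, lysosomes and related compartments, and LGALS3 (galectin-3) is a galactoside-binding lectin that is abundant in macrophages. None of the genes is made by macrophages alone, and in whole lung a larger number of cells of a type cannot be told apart from more RNA per cell.

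Among the 9 measured genes, 6 rose in TGFb1-Tg lungs relative to WT lungs over their pools and 0 fell. The order was Gpnmb, Trem2, Cd68, Tyrobp, Lgals3 and Cd63, running from 4.53-fold to 1.29-fold. Apoe, Lpl and Fabp5 did not pass the test. The test was limma on the log2 sample-to-pool intensity ratio, with Benjamini-Hochberg adjustment over 25647 genes and a threshold of 0.05. The threshold was passed upward by 19% of all genes and downward by 19.8%, so a single call carries little weight here and the size of a difference carries more. Only 1.91% of genes passed upward with at least a 2-fold difference, and Gpnmb, Trem2 and Cd68 were among them. All 6 called genes had groups that did not overlap, as was so upward for 18.2% of genes complete on all arrays. The median difference of the 9 genes was 0.43 on the log2 scale, against 0 over all genes tested. The members were chosen with earlier results of these data known, so their count and median are descriptions. Nothing in the labels says how the 4 lungs of a group were housed or processed, so p-values measure the spread between these arrays.

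**Figure D1:**
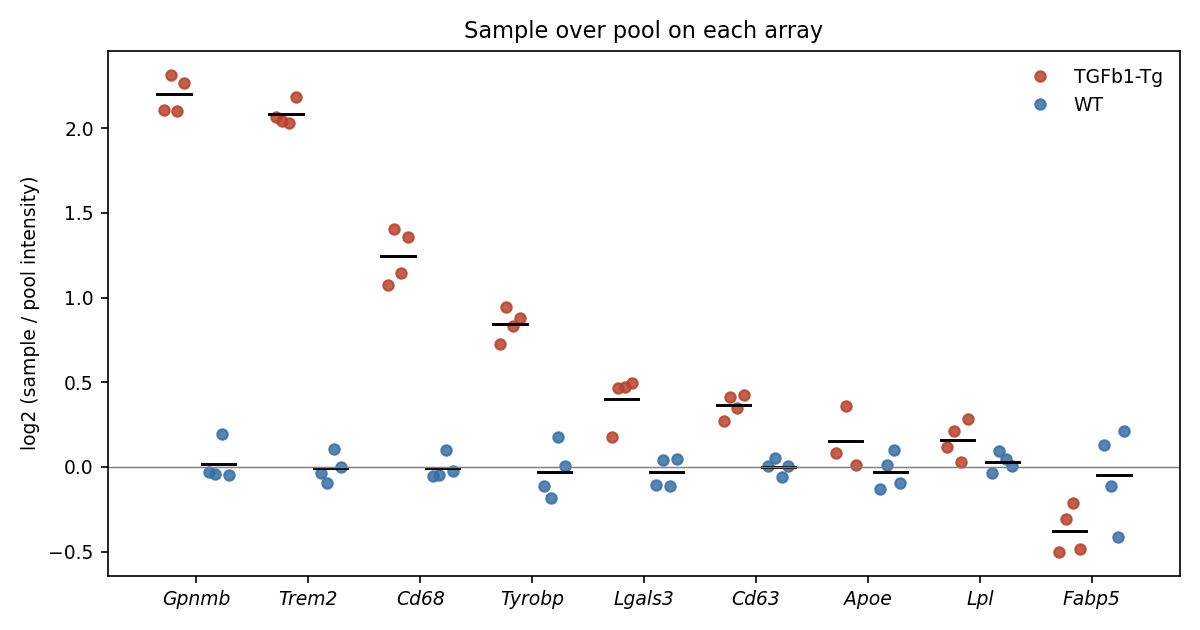
Log2 sample-to-pool intensity ratio of the 9 measured genes, with 1 point for each array, TGFb1-Tg left of WT, and a black line at each group mean (n = 4 arrays a group, 3 for Apoe in TGFb1-Tg). Gpnmb and Trem2 lie near 2 on every TGFb1-Tg array and near 0 on every WT array, and the groups overlap for Apoe, Lpl and Fabp5.

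Of the receptor and its adaptor, Trem2 had the larger fold. The sample intensity of Trem2 was 2.72, 2.31, 2.41 and 2.86 in the 4 TGFb1-Tg lungs and 0.42, 0.45, 0.56 and 0.46 in the 4 WT lungs. Its pools read 0.65, 0.56, 0.59 and 0.63 on the TGFb1-Tg arrays and 0.43, 0.48, 0.52 and 0.46 on the WT arrays. Every TGFb1-Tg lung was far above its pool and above every WT lung. Every WT lung was close to its pool, which a pool made of the same lungs would give by construction. The log2 sample-over-pool ratio averaged 2.08 ± 0.07 in TGFb1-Tg and -0.01 ± 0.08 in WT (SD, n = 4 each). The difference was 2.09 ± 0.05 (SE), a 4.25-fold higher ratio with a 95% interval of 3.90 to 4.62 (limma adjusted p = 1.33e-06).

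Tyrobp had sample intensities of 6.30, 7.21, 6.42 and 6.13 in TGFb1-Tg lungs, against 2.63, 2.60, 3.07 and 2.90 in WT lungs. The pools read 3.33 to 3.81 beside the TGFb1-Tg lungs and 2.72 to 2.95 beside the WT lungs. The groups did not overlap in either the sample or the pool channel. Its log2 ratio averaged 0.84 ± 0.09 in TGFb1-Tg and -0.03 ± 0.16 in WT (SD, n = 4 each), a difference of 0.87 ± 0.09 (SE; limma adjusted p = 2.35e-04). This call was lost after quantile normalization of the ratios, at a difference of 0.59 with a limma adjusted p of 0.0603. Over the alternatives for the ratios the limma adjusted p ranged from 2.1e-05 to 0.0603. Over all genes that normalization left 6.25% called higher and 5.76% lower.

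Gpnmb and Cd68, both of the endosomal and lysosomal membrane system, were the other genes past 2-fold. Gpnmb read 5.13, 5.03, 4.21 and 4.00 in the TGFb1-Tg lungs and 1.04, 1.01, 1.11 and 0.89 in the WT lungs. Its pools read 1.19, 1.01, 0.98 and 0.83 on the TGFb1-Tg arrays and 1.06, 1.04, 0.97 and 0.92 on the WT arrays, ranges that overlapped. The high channel was thus the TGFb1-Tg sample alone. The log2 ratio averaged 2.20 ± 0.11 in TGFb1-Tg and 0.02 ± 0.12 in WT (SD, n = 4 each), a difference of 2.18 ± 0.08 (SE) with a 95% interval of 2.00 to 2.36 (limma adjusted p = 5.90e-06). The intervals of Gpnmb and Trem2 overlapped, and the difference between these genes was not tested.

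Cd68, long used as a macrophage marker, read 5.17, 6.52, 5.19 and 6.04 in TGFb1-Tg lungs and 2.13, 2.29, 2.53 and 2.41 in WT lungs. Its pools lay at 2.35 to 2.46 on the TGFb1-Tg arrays and 2.21 to 2.45 on the WT arrays. As for Gpnmb, only the TGFb1-Tg samples stood apart. The log2 ratio averaged 1.24 ± 0.16 in TGFb1-Tg and -0.01 ± 0.07 in WT (SD, n = 4 each), a difference of 1.25 ± 0.08 (SE), or 2.38-fold (limma adjusted p = 4.85e-05).

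The smaller rises were those of Cd63, a tetraspanin of late endosomes and exosomes, and of Lgals3. Cd63 read 17.4, 24.3, 22.6 and 22.7 in TGFb1-Tg lungs and 15.6, 13.2, 12.3 and 13.7 in WT lungs. The pool on the first TGFb1-Tg array read 14.4 and those on the other TGFb1-Tg arrays 16.96 to 18.2, against 12.7 to 15.6 on the WT arrays. The samples did not overlap, though TGFb1-Tg replicate 1 lay close to WT replicate 1. The log2 ratio averaged 0.36 ± 0.07 in TGFb1-Tg and 0.00 ± 0.04 in WT (SD, n = 4 each), a difference of 0.36 ± 0.04 (SE), or 1.29-fold (limma adjusted p = 4.12e-04). After quantile normalization of the ratios the difference of Cd63 was 0.21, close to the threshold (limma adjusted p = 0.047).

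Lgals3 read 20.6, 24.4, 23.6 and 23.6 in TGFb1-Tg lungs and 14.8, 14.9, 14.2 and 15.9 in WT lungs. Its pools read 16.8 to 18.3 on the TGFb1-Tg arrays and 14.5 to 15.95 on the WT arrays. The log2 ratio averaged 0.40 ± 0.15 in TGFb1-Tg and -0.03 ± 0.09 in WT (SD, n = 4 each), and the difference was 0.43 ± 0.08 (SE), or 1.35-fold (limma adjusted p = 0.00528). No array of one group reached into the other, and the lowest of the TGFb1-Tg ratios, 0.18 on replicate 1, stood apart from the other 3. Quantile normalization of the ratios ended the call of Lgals3, at 0.31 with a limma adjusted p of 0.119. Over the alternatives for the ratios the limma adjusted p ranged from 8.76e-04 to 0.119. Lgals3, Cd63 and Lpl read near the upper end of the intensities on the TGFb1-Tg arrays, at 87.8 to 100% of the highest sample intensity for Lgals3, 74.0 to 99.6% for Cd63 and 74.6 to 89.7% for Lpl. No saturation mark came with the values, and whether these differences are compressed was not tested.

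None of the 3 genes that act on lipid itself passed the test over the pool. Lpl read 19.9, 20.7, 18.03 and 21.6 in TGFb1-Tg lungs and 16.1, 15.8, 15.6 and 15.98 in WT lungs. Its pools read 17.6 to 18.3 on the TGFb1-Tg arrays and 14.8 to 16.6 on the WT arrays, so that both channels were higher on the TGFb1-Tg arrays. The log2 ratio averaged 0.16 ± 0.11 in TGFb1-Tg and 0.03 ± 0.06 in WT (SD, n = 4 each), a difference of 0.13 with a 95% interval of -0.01 to 0.27 (limma adjusted p = 0.125). Without TGFb1-Tg replicate 3, Lpl passed the test at 0.18 (limma adjusted p = 0.0373).

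Apoe was measured in 3 of the 4 TGFb1-Tg lungs, with no value on replicate 2. It read 11.8, 16.9 and 13.9 in TGFb1-Tg lungs and 11.3, 14.5, 13.7 and 15.9 in WT lungs. The groups overlapped, and the difference in log2 ratio was 0.18 with a 95% interval of -0.07 to 0.43 (limma adjusted p = 0.226). In the centred sample channel the interval of Apoe was wider, from -0.12 to 0.72.

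Fabp5 was the sole gene of the 9 with a negative difference over the pool. It read 0.77, 0.84, 0.93 and 0.75 in TGFb1-Tg lungs and 1.06, 0.86, 0.72 and 1.25 in WT lungs. Its pools read 1.04 to 1.09 on the TGFb1-Tg arrays and 0.93 to 1.08 on the WT arrays. The WT lungs spread more than the TGFb1-Tg lungs, and WT replicate 3 read below all 4 TGFb1-Tg lungs. The log2 ratio averaged -0.38 ± 0.14 in TGFb1-Tg and -0.05 ± 0.28 in WT (SD, n = 4 each), a difference of -0.33 with a 95% interval of -0.68 to 0.02 (limma adjusted p = 0.129). Without WT replicate 3, Fabp5 passed as lower, at -0.45 (limma adjusted p = 0.0205).

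**Figure D2:**
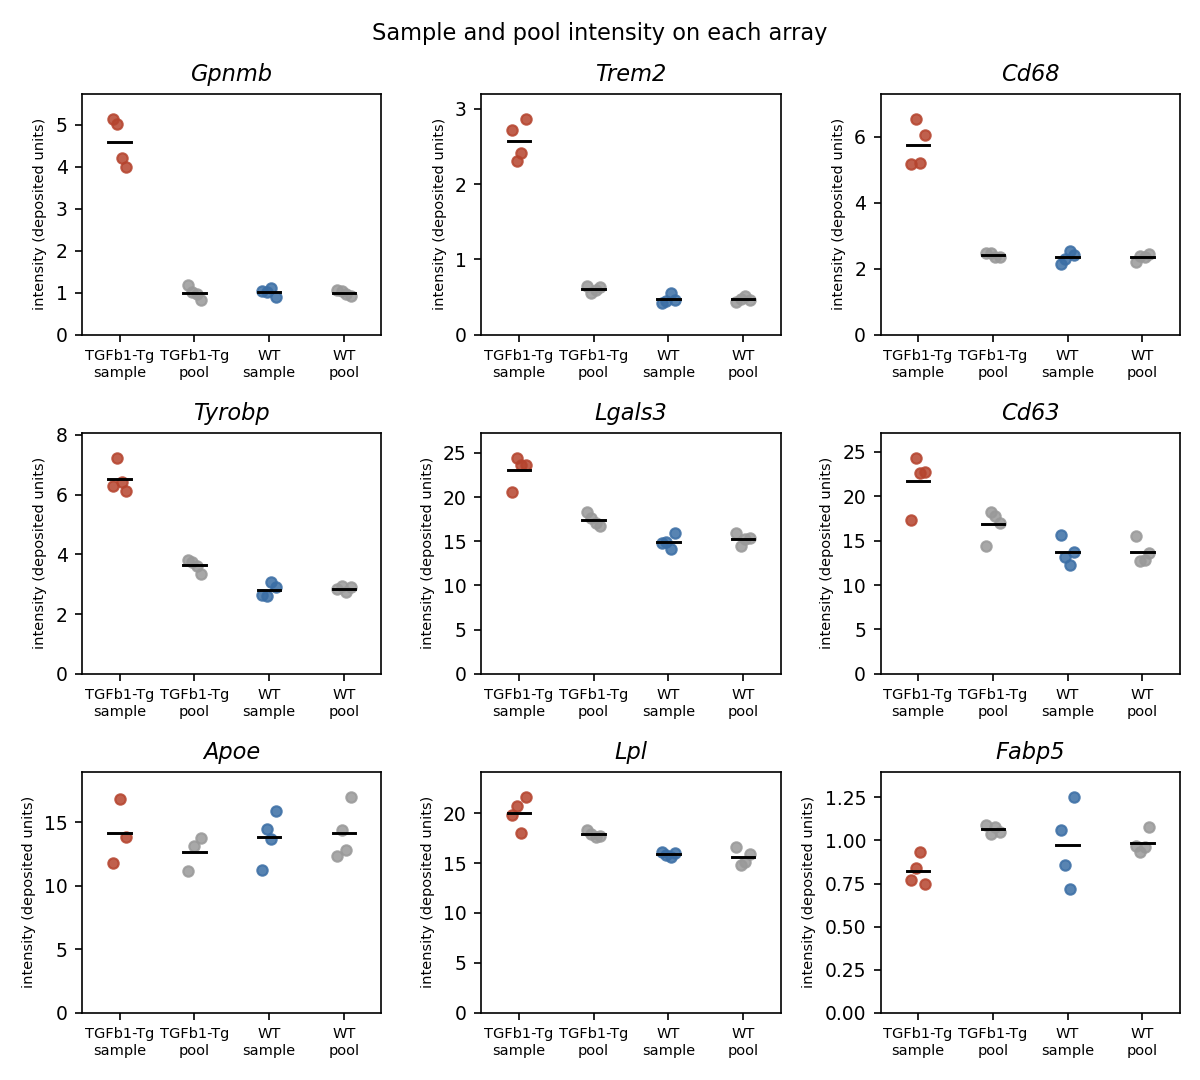
Sample and pool intensity of each of the 9 genes in the deposited units, with 1 point for each array, a black line at the mean, TGFb1-Tg samples in red, WT samples in blue and pools in grey. The axis of each panel starts at 0. Trem2, Gpnmb and Cd68 are high in the TGFb1-Tg samples. For Trem2, Tyrobp, Lgals3 and Lpl the pool of the TGFb1-Tg arrays also lies above that of the WT arrays, without overlap.

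Leaving out WT replicate 1, the lung with a deviating Xist level, left the same 6 genes called as higher and 0 as lower. Trem2 then differed by 2.08, Gpnmb by 2.16, Cd68 by 1.24, Tyrobp by 0.85, Lgals3 by 0.41 and Cd63 by 0.36 on the log2 scale of the ratios.

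The authors' deposited table gives a p-value for each probe on each array, which tests that array's sample against its pool. If the WT pool held the same WT lungs, high p-values on the WT arrays follow in part from that. For Trem2 these lay between 6.51e-25 and 1.07e-17 on the TGFb1-Tg arrays in the authors' deposited table, and at 0.56 or above on the WT arrays. For Gpnmb the authors' deposited table gives 6.22e-24 to 6.04e-18 on the TGFb1-Tg arrays and 0.22 or above on the WT arrays. Each of the TGFb1-Tg lungs thus differed from its pool by that measure for both genes. For Cd63 the authors' deposited table gives 0.51, 0.02, 0.07 and 0.03 on the 4 TGFb1-Tg arrays and 0.79 or above on the WT arrays, so replicate 1 lay nearest to its pool.

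Promoter sequences are shown for Trem2, Gpnmb and Cd68, the 3 genes past 2-fold, because these windows and no other member's window held the letters TGANTCA. With C or G in the middle these are letters that AP-1 factors (FOS and JUN) are known to bind. The middle base was left free in the search, and it is A for Trem2, C for Gpnmb and G for Cd68. The sequences are from RefSeq on GRCm38.p6 and span 250 bases before to 50 bases after the annotated start, at chr17:48346151-48346450 on the plus strand for Trem2, chr6:49036268-49036567 on the plus strand for Gpnmb and chr11:69666121-69666420 on the minus strand for Cd68. Each is written 5′ to 3′ on the gene's strand, and capitals mark TGANTCA.
Trem2: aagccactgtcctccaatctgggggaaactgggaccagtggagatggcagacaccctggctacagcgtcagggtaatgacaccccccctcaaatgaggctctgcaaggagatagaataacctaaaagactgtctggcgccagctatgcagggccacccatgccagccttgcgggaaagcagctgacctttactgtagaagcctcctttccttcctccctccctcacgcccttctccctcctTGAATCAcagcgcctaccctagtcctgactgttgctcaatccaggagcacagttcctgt
Gpnmb: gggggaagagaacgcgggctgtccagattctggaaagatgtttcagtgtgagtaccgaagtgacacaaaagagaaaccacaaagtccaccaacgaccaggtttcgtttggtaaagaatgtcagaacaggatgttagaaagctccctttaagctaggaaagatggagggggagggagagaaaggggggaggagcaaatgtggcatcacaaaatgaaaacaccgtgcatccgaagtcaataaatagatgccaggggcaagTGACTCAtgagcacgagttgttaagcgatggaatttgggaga
Cd68: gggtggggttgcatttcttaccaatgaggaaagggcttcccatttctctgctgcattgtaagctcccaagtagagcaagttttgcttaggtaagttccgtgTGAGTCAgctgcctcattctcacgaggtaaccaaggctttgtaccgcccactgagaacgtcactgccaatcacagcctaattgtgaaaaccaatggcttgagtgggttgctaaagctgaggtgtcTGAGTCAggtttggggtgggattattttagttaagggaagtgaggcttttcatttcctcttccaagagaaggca
The match lay 9 bases before the start of Trem2 and 8 bases after that of Gpnmb, and Cd68 had a pair of matches, 24 and 149 bases before its start. The table held 8 windows for 6 of the 9 genes, 3 of them for Apoe and 1 each for Cd63, Cd68, Gpnmb, Lgals3 and Trem2. Tyrobp, Fabp5 and Lpl are named only. On either strand, TGANTCA with any middle base stood in 3 of the 8 windows, against 7.81% of 32851 windows of the same length. GAGGAA, the core that PU.1, a factor of myeloid cells, binds, stood in 5 of the 8, against 28.3% of all windows. The E-box CACGTG that MITF and TFE factors bind stood in 0 of the 8, against 7.15%, and the LXR element, a direct repeat of AGGTCA spaced by 4 bases, in 0 of the 8, against 0.0152%. No match overlapped one of another motif. These are descriptions of letters in a short window, and whether a factor acts there was not measured.

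The sample channel alone, taken as log2 intensity centred on each array's median, gives the TGFb1-Tg lungs against the WT lungs without the pools. By this measure 7 of the 9 genes rose and 0 fell, the 7 being the 6 above and Lpl. Calls upward were also more frequent over all genes, at 35.1%, with 13.2% downward. They made up 68.6% of the genes with a mean intensity from 1 to 10 and 57.8% of those above 10, where 8 of the 9 members lie, Fabp5 being at 0.961. A count of 7 of 9 is thus near the share of genes of like brightness. The difference was 2.74 for Trem2 and 2.46 for Gpnmb, against 1.57 for Cd68 and 1.51 for Tyrobp. It was 0.95 for Cd63, 0.91 for Lgals3 and 0.62 for Lpl, with limma adjusted p of 0.00104 or below for all 7. Apoe differed by 0.30 and Fabp5 by 0.07, with limma adjusted p of 0.212 and 0.800. None of the 7 genes overlapped between the groups, as was so upward for 34.6% of all genes.

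Part of this shift was shared by other genes of like brightness. The median difference was 0.12 over all genes, -0.25 over the 8774 genes with a mean intensity under 0.1, 0.18 over the 9927 from 0.1 to 1, 0.48 over the 6361 from 1 to 10, and 0.44 over the 585 above. The pool channels showed nearly the same medians for these bands, -0.29, 0.19, 0.43 and 0.45. Relative to the median of its own brightness band, the difference was 2.26 for Trem2, 1.98 for Gpnmb, 1.09 for Cd68 and 1.03 for Tyrobp. It was 0.51 for Cd63, 0.47 for Lgals3 and 0.18 for Lpl, and -0.14 for Apoe and -0.11 for Fabp5. After quantile normalization of the sample channels the same 7 genes were called, with 20.5% of all genes called higher. The differences were then 2.35 for Trem2, 2.03 for Gpnmb, 1.11 for Cd68, 1.04 for Tyrobp, 0.73 for Cd63, 0.71 for Lgals3 and 0.41 for Lpl (limma adjusted p of Lpl = 0.0104). Apoe and Fabp5 then had differences of -0.02 and -0.32, so that their sign depended on the scaling.

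The pools differed too, with no test possible since each array set had 1 pool. The centred pool channel was higher on the TGFb1-Tg arrays by 0.60 for Trem2, 0.58 for Tyrobp, 0.53 for Cd63, 0.43 for Lgals3 and 0.43 for Lpl. It was higher by 0.35 for Fabp5, 0.27 for Cd68, 0.23 for Gpnmb and 0.08 for Apoe. The pool medians of all genes were 0.19 at a mean intensity from 0.1 to 1, 0.43 from 1 to 10 and 0.45 above. Lgals3 and Lpl thus lay near the median of their band, and Gpnmb, Cd68 and Apoe lay below theirs. For Lpl and Cd63 the pool difference exceeded the difference in the ratio, and for Fabp5 it was about as large as the ratio's difference of -0.33 and opposite in sign. Whether the pools carried a biological difference or a difference between the array sets was not tested.

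**Figure D3:**
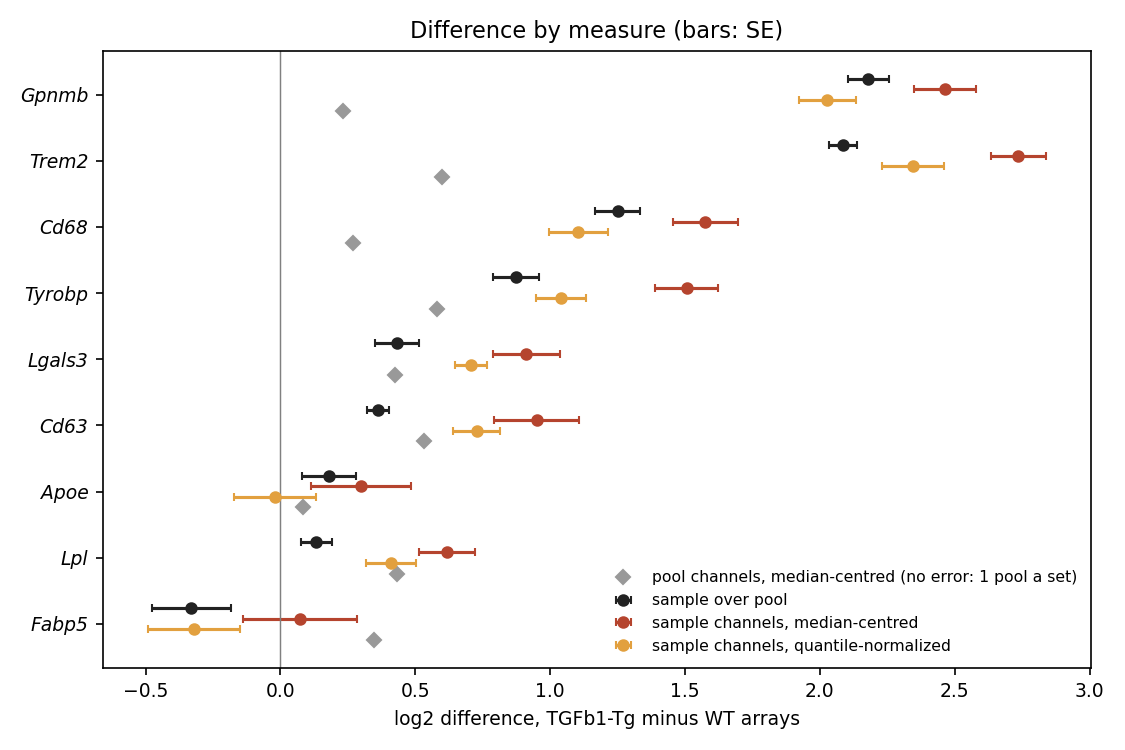
Log2 difference of each gene, TGFb1-Tg minus WT arrays, for the sample-over-pool ratio, the median-centred sample channel, the quantile-normalized sample channel and the centred pool channel, with bars for the SE (n = 4 arrays a group, 3 for Apoe in TGFb1-Tg). Trem2, Gpnmb, Cd68 and Tyrobp lie well above 0 by all 3 sample measures, and Fabp5 changes side.

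Markers of macrophages in general moved with these genes, and their differences, like those of the gene lists that follow, are in log2 sample-over-pool ratio. Over the pool, 19% of all genes were called higher and 19.8% lower. The share called higher was 28.2% at a mean intensity from 1 to 10, 23.25% above and 23.8% from 0.1 to 1. In the centred sample channel, 68.6% of genes with a mean intensity from 1 to 10 and 57.8% of those above were called higher. From 0.1 to 1 the share was 37.6%, and after quantile normalization it was 20.5% over all genes. The counts of each list were not tested against these shares by either measure. Of 13 measured markers, 12 rose over the pool and 1 fell, with a median of 0.74, and 12 were higher and 0 lower in the centred sample channel, or 10 and 1 after its quantile normalization. C1qb and C1qc, which encode chains of complement C1q made by tissue macrophages, differed by 1.15 ± 0.07 and 1.13 ± 0.08 (SE), with limma adjusted p of 4.19e-05 and 7.33e-05. Mertk, a receptor for the uptake of dying cells, fell by 0.51 over the pool (limma adjusted p = 3.59e-04) and by 0.53 in the quantile-normalized sample channel (limma adjusted p = 0.00375), but had no call in the centred sample channel (-0.07). The summed sample intensity of these 13 genes ran from 66.5 to 73.0 in TGFb1-Tg lungs and from 36.9 to 41.2 in WT lungs, and that of the 8 members complete on all arrays from 78.0 to 91.3 in TGFb1-Tg lungs and from 50.1 to 53.8 in WT lungs. Of 3 pan-leukocyte genes, Cd53, a tetraspanin of leukocytes, rose by 0.50, while Ptprc (CD45) differed by 0.02 and Coro1a by -0.06 without a call, though all 3 were called higher in the centred sample channel. After quantile normalization of that channel Coro1a was not called (0.25, limma adjusted p = 0.147). The part of these markers in the members' differences was not tested.

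The members were also set against the mean of the 13 general macrophage markers on the same array, a measure chosen after the values had been seen. That mean was 0.63 ± 0.05 in TGFb1-Tg and -0.00 ± 0.11 in WT (SD, n = 4 each). Relative to it, Gpnmb was higher in TGFb1-Tg by 1.55, Trem2 by 1.46, Cd68 by 0.62 and Tyrobp by 0.24. Trem2 lay at 1.35 to 1.55 in TGFb1-Tg and -0.04 to 0.03 in WT, and Gpnmb at 1.49 to 1.64 in TGFb1-Tg and -0.06 to 0.07 in WT. The other 5 had negative differences, of -0.20 for Lgals3, whose groups overlapped, -0.27 for Cd63, -0.43 for Apoe, -0.50 for Lpl and -0.96 for Fabp5. These are descriptions, with no test.

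Markers of alveolar macrophages, the resident macrophages of the airspace and a source of Fabp5 and Lpl, moved in both directions. Of 10 measured, 4 rose, 1 fell and 5 were not called (median 0.44), where 19% of all genes rose and 19.8% fell. Atp6v0d2, a subunit of the vacuolar proton pump, rose by 1.57 ± 0.08 (SE) and F7, coagulation factor VII, by 1.18 ± 0.07. Fabp1, a fatty acid binding protein best known from liver, fell by 2.07 ± 0.18, and Marco, a scavenger receptor, differed by 0.56 without a call (limma adjusted p = 0.110). Their summed sample intensity was 74.1 to 93.8 in TGFb1-Tg lungs and 58.1 to 64.7 in WT lungs. Without WT replicate 1, 5 of the 10 rose and 1 fell, and in the centred sample channel 8 were higher and 1 lower, or 4 and 1 after its quantile normalization.

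Adipocyte markers, which concern Lpl since adipocytes also make it, were lower. Of 8, 7 fell and 0 rose, with a median of -1.10, and 6 were lower in the sample channel, both centred and quantile-normalized. Among all genes 19.8% fell over the pool, and 13.2% were lower in either form of the sample channel. Adipoq, the adipokine adiponectin, differed by -1.76 ± 0.23 and Car3, a carbonic anhydrase of fat and muscle, by -1.57 ± 0.13 (SE; limma adjusted p = 8.51e-04 and 1.10e-04). Their summed sample intensity was 4.09 to 6.61 in TGFb1-Tg lungs, against 12.5 to 21.6 in WT lungs, while Lpl did not pass the test in either direction over the pool. The part of these cells in the Lpl result was not tested.

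In the pathway around Trem2 and Tyrobp, 8 of 12 genes of TREM2 and TYROBP signalling rose and 0 fell, with a median of 0.22 (0 over all genes). By the same measure 19% of all genes rose and 19.8% fell. Without WT replicate 1, 6 of the 12 rose. In the centred sample channel 10 were higher, or 7 after its quantile normalization, against 35.1% and 20.5% of all genes. Clec5a, a myeloid receptor that also signals through TYROBP, differed by 1.22 ± 0.09 (SE; limma adjusted p = 6.13e-05). Adam10, a protease known to shed TREM2 from the cell surface, differed by 0.53 ± 0.04 (limma adjusted p = 5.42e-05). Hcst (DAP10), the partner adaptor to TYROBP, differed by -0.06 and Inpp5d, a lipid phosphatase that limits this signalling, by -0.09, neither called over the pool. In the centred sample channel both were called higher, at 0.39 and 0.38 (limma adjusted p = 0.0144 and 0.0344), and of the pair Hcst alone was called after quantile normalization, at 0.28 (limma adjusted p = 0.0393).

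Genes of lipid uptake, storage and efflux moved in both directions, with 9 of 22 higher, 6 lower and 7 not called (median 0.10). Over all genes 19% were higher and 19.8% lower. Msr1, a scavenger receptor for modified lipoproteins, rose by 2.17 ± 0.19 (SE; limma adjusted p = 1.58e-04), from probes with a mean intensity of 0.0963. Apoc1, an apolipoprotein, rose by 1.31 ± 0.10 (limma adjusted p = 8.28e-05), unlike Apoe. Fabp4, a fatty acid binding protein of adipocytes, capillaries and macrophages, fell by 0.66 ± 0.08. Gpihbp1, which anchors LPL to capillary endothelium, differed by -0.69 ± 0.09 over the pool (limma adjusted p = 9.67e-04) by -0.39 in the quantile-normalized sample channel (limma adjusted p = 0.0144) and by -0.01, without a call, in the centred one. In the centred channel 12 of the 22 were higher and 1 lower, and after quantile normalization 9 were higher and 5 lower. The count of 12 is to be read against the shares of all genes given above.

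Of 18 other genes reported for lipid-associated macrophages or for disease-associated microglia, 13 rose, 2 fell and 3 were not called (median 0.61). Among all genes 19% rose and 19.8% fell. Mmp12, the macrophage elastase, differed by 2.60 ± 0.14 (SE; limma adjusted p = 2.41e-05), with sample intensities of 2.56 to 3.13 in TGFb1-Tg lungs and 0.34 to 0.49 in WT lungs. Igf1, a growth factor that macrophages and stromal cells make, differed by 1.62 ± 0.06 (limma adjusted p = 8.29e-06). Spp1 (osteopontin), often named together with Trem2 and Gpnmb, was not called over the pool, at 0.88 ± 0.33 (limma adjusted p = 0.0800). It was called higher in the centred sample channel, at 2.07 (limma adjusted p = 1.59e-04), and after quantile normalization of that channel, at 1.79 (limma adjusted p = 0.00157), while its pools differed by 1.14. Cst7, an inhibitor of cysteine proteases, fell by 0.65 from a probe with a mean intensity of 0.0719, and Csf1, the growth factor of macrophages, fell by 0.50, with differences of -0.07 and 0.10 in the centred sample channel. In that channel 16 of the 18 were higher and 0 lower, or 14 and 0 after quantile normalization.

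**Figure D4:**
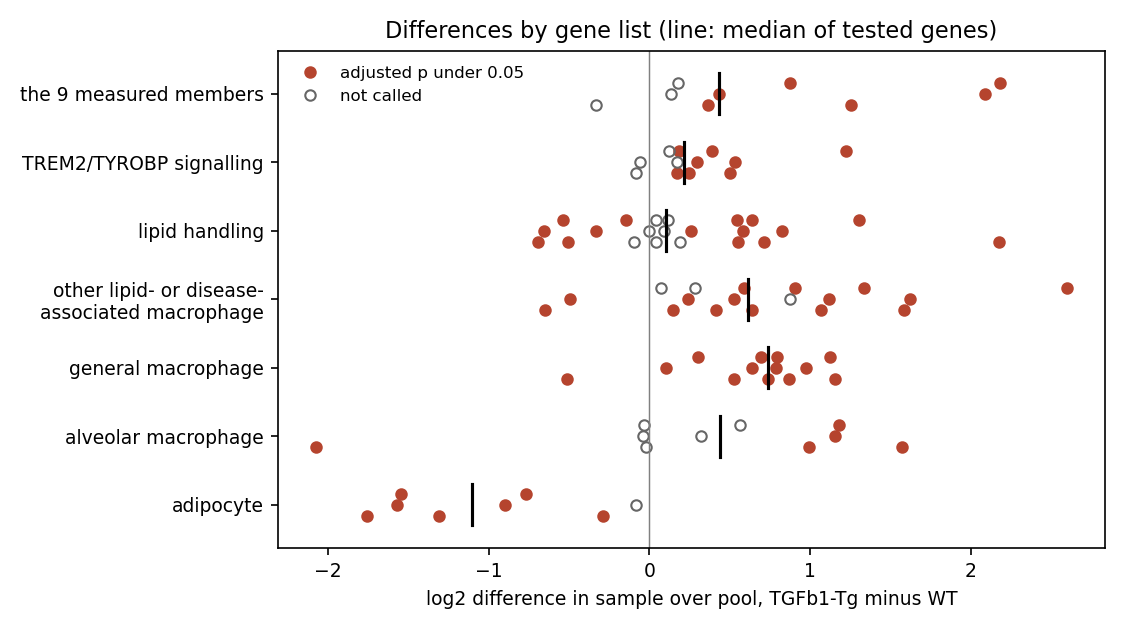
Log2 difference in the sample-over-pool ratio, TGFb1-Tg minus WT, for the tested genes of each list, with filled red points for a limma adjusted p under 0.05, open grey points for genes not called and a black line at each list's median. The medians are 0.43 for the 9 measured genes, 0.61 for the other genes of lipid-associated or disease-associated macrophages, 0.74 for general macrophage markers and -1.10 for adipocyte markers.

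The genes whose 8 log2 ratios were nearest to those of Trem2, by the root mean square difference over the 8 arrays among 25295 genes, were Kif22 (0.0940), Hmmr (0.0948), Cdc20 (0.102), Cdca8 (0.110) and Birc5 (0.113). All 5 are known from mitosis. Their differences between TGFb1-Tg and WT were 2.12 for Kif22, 2.20 for Hmmr, 1.99 for Cdc20, 2.07 for Cdca8 and 2.10 for Birc5, against 2.09 for Trem2. As the measure follows size over a pair of groups, it places together any genes with a difference near 2 and little spread within a group.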

How the data were processed

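Whole-lung RNA from 4 TGFb1-Tg and 4 WT mice was measured on 8 arrays with 2 colours. The deposited intensity values of both channels were scaled by the authors, with the lung in Cy5 and the pool in Cy3 per the file headers. The log10 ratios deposited by the authors were compared with the ratio of the channels, and 99.99% or more of an array's probes lay within 0.002. The deposited p-value of each array was used only as a description. The submitters' processing notes name Agilent Feature Extraction 8.5.1.1. Its correction steps and the genome build were not given in the sources used here. Per the labels' protocols RNA was extracted with Trizol and 100 ng was amplified.

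Of 39341 probes, 30063 were named with the help of the RefSeq gene table of GRCm38.p6. Probes of 1 gene were averaged. The ratio and the centred sample channel were each modelled on the log2 scale with limma 3.58.1 (lmFit, eBayes) under R 4.3.3, two-sided, where each group had at least 2 values. Precision is limited by the number of arrays, and the SE of a gene had a median of 0.0555. The fits were tested on simulated data. Alternatives were quantile normalization, no centring, a filter on genes with a mean intensity under 0.1, a pseudocount of 0.05, the brightest probe, complete genes, the deposited log10 ratios, a replicate block and leaving out each array. The 9 lists (the members, TREM2 and TYROBP signalling, lipid uptake, storage and efflux, other genes of lipid-associated or disease-associated macrophages, and general macrophage, pan-leukocyte, alveolar macrophage, adipocyte and lung epithelial markers) and the members were chosen with earlier results of these data known. Named were all members, Tgfb1, the 2 largest called rises and falls of each list, list genes needed for a statement of no call, and the 5 genes nearest to Trem2. Python 3.11.15 was used with pandas 2.3.3 for tables and with matplotlib 3.10.9 for figures. Unused columns of per-sample values numbered 0.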

Additional observations from a re-analysis of the deposited data

Results flagged for a closer look

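The ratios of 17 groups of 4 arrays, for the members complete in a group, were searched for an array far from the others by Dixon's ratio, a gap to the nearest array over the whole range of the group, taken above its 95% critical value. Gpnmb was highest on WT replicate 3, at a log2 sample-over-pool ratio of 0.19, with the other WT arrays between -0.05 and -0.03 and a Dixon ratio of 0.916. All 4 TGFb1-Tg arrays lay at 2.10 or above. Lgals3 was lowest on TGFb1-Tg replicate 1, at 0.18, with the other TGFb1-Tg arrays between 0.46 and 0.50 and a Dixon ratio of 0.899. Without TGFb1-Tg replicate 1 the difference of Lgals3 was 0.51, against 0.43 with it. Chance picks out about 5% of such groups.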

How the results depend on the processing

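Trem2, Gpnmb, Cd68 and Cd63 kept their direction and their call under all alternatives run for the ratios. On the log2 scale these ran from 1.55 to 2.12 for Trem2, 1.57 to 2.24 for Gpnmb, 0.87 to 1.31 for Cd68 and 0.21 to 0.39 for Cd63. The centred sample channels gave 2.74, 2.46, 1.57 and 0.95 for the same genes. Cd63 kept its call narrowly after quantile normalization of the ratios, at 0.21 with a limma adjusted p of 0.047. Quantile normalization of the ratios left 4 members called higher, losing Tyrobp (0.59) and Lgals3 (0.31), and lowered the calls over all genes to 3080, of which 1602 were higher and 1478 lower, against 9956. The cause was not tested. The centred sample channels gave 9003 genes higher, 72.6% of calls against 49% for the ratios, and turned Fabp5 to 0.071. Without centring the sample channels gave 5404 higher and 7752 lower (41.1% higher), with Fabp5 at -0.22, and after quantile normalization they gave 5261 higher (60.9%), with Apoe at -0.021 and Fabp5 at -0.32. Leaving out dim genes gave 1797 lower and 83.5% higher, with fewer genes tested, and a pseudocount 79.8% higher. The no-centring setting was chosen after seeing the data. Leaving out 1 array gave 6 to 7 members higher and 0 to 1 lower over the pool, the seventh being Lpl without TGFb1-Tg replicate 3 and the 1 lower being Fabp5 without WT replicate 3. In the sample channels Fabp5 ranged from -0.11 to 0.25, below 0 without WT replicate 3 and without TGFb1-Tg replicate 3 (-0.01). With the replicate number as a block, 6 members were higher and 0 lower, and 8937 genes were called. Same-numbered lungs did not visibly deviate together, with correlations of -0.04 to 0.05 for the ratios and -0.13 to -0.02 for the sample channels. Each lay below the highest with another number. No pairing by number was thus seen. The comparison cannot exclude it, since each correlation was set against the highest of several.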
